A study of Mus musculus with 16 samples.

Results

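The genes described here encode the NF-kB transcription factor subunits (Rela, Relb, Rel, Nfkb1 and Nfkb2), proteins of the IkB family (Nfkbia, Nfkbie and Nfkbiz) and a pair of TNF-induced genes (Tnfaip2 and Tnfaip3). They were chosen by name, as every probe whose symbol on the array's platform table is among these 10 genes. Of the 10 genes 9 had a probe, with 12 probes among the 25697 on the array, and all 12 were tested, as were 16351 probes in all. Nfkb1 was not analysed here. Not every member is an inhibitor: Tnfaip2 was included for its induction by TNF, and Nfkbiz also acts as a co-activator.

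The study concerned SIRT1, an NAD-dependent deacetylase of proteins, in microglia from mice that differed in age and from a model of dementia. Cells were dissociated from mouse brain, depleted of myelin and selected on beads for CD11b, a surface integrin of myeloid cells, and their RNA was hybridised to Illumina arrays. The 16 arrays form 6 groups: TAU/LysM (2 arrays), TAU (2 arrays), old LysM-Cre/SIRT1F/F (3 arrays), old SIRT1F/F (3 arrays), young LysM-Cre/SIRT1F/F (3 arrays) and young SIRT1F/F (3 arrays). SIRT1F/F mice carry floxed Sirt1 alleles, and LysM-Cre/SIRT1F/F mice, called LysM-Cre below, also carry a Cre recombinase under the control of Lyz2, a lysozyme gene of monocytes, macrophages and neutrophils. The labels give no age in months, no age at all for TAU and TAU/LysM, no description of the TAU transgene, and no floxed genotype for TAU/LysM. All groups share a genetic background described as a mixture of BL6 and 129/Sv.

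NF-kB is a family of dimeric transcription factors that IkB proteins hold in the cytoplasm until a kinase complex, IKK, marks the inhibitor for destruction. The released dimers switch on inflammatory genes and also the genes of their own inhibitors, chiefly Nfkbia and Tnfaip3, which ends the response. In microglia the pathway drives cytokine genes such as Tnf and Il1a, and RelA, the product of Rela, is a substrate that SIRT1 deacetylates, a change of the protein that RNA levels do not measure.

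All levels below are log2 of background-corrected, quantile-normalized intensity, and all differences are on the same log2 scale with a standard error (SE). A difference was called at a limma adjusted p (Benjamini-Hochberg over all tested probes) under 0.05. The 12 probes were above background on all 16 arrays. Median intensities ran from 202.9 to 283.6 over the arrays and the brightest values from 42456 to 49192, so the Nfkbia probe, at 12703 to 28625, was bright but below the brightest spots. Sirt1 itself differed between the genotypes by 0.05 (limma adjusted p = 0.762) averaged over the 3 settings, and where its probe lies relative to the floxed part is not known here. All 10 tested markers of 12 listed for microglia were above background on all 16 arrays.

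Promoter windows of 300 bases (250 before and 50 from the start of the gene on) were available for 7 of the members from RefSeq, build GRCm38.p6, and are shown because the feedback genes are known to be switched on through kappaB sites. The kappaB consensus, searched on both strands, matched in 6 of the 7 genes (Rel, Nfkb2, Nfkbia, Nfkbie, Tnfaip2 and Tnfaip3), against 9.55% of 27025 genes and 8.46% of 32851 windows. Nfkbia had 1 match, 29 bases before its start, and Tnfaip2 had 1 match, 24 bases before its start. Rela had none in this window. A match is a description of the letters only. In the sequences, written 5′ to 3′ along the gene, capitals mark the match. The Nfkbia window is chr12:55492598-55492897 on the minus strand, the Tnfaip2 window is chr12:111442411-111442710 on the plus strand, and the Rela window is chr19:5637291-5637590 on the plus strand.
Nfkbia: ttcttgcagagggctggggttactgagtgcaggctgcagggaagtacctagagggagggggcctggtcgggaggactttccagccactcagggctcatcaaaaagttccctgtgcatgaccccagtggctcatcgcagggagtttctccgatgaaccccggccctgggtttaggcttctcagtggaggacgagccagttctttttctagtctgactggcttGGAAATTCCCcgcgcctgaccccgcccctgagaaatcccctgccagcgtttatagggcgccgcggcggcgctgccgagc
Tnfaip2: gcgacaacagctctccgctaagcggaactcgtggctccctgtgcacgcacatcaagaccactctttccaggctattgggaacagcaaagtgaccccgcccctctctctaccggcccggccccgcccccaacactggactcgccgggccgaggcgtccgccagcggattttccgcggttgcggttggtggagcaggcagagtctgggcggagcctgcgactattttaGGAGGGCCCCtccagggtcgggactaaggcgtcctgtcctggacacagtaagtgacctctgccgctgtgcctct
Rela: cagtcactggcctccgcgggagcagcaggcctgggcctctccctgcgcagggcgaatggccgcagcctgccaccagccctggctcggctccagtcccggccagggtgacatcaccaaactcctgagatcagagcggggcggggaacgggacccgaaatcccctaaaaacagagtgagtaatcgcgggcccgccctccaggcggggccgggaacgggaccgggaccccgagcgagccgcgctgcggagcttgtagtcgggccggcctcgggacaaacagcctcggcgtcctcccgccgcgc

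Rela, the transactivating subunit of the common NF-kB dimer, was nearly flat. Its level was 12.73 and 12.96 in TAU/LysM, 12.90 and 12.86 in TAU, 12.79, 12.76 and 12.84 in old LysM-Cre, 12.68, 12.81 and 12.99 in old SIRT1F/F, 12.83, 12.80 and 12.72 in the young LysM-Cre arrays, and 12.89, 12.77 and 12.88 in young SIRT1F/F. Neighbouring groups overlapped throughout the order of the means, from TAU at the top to young LysM-Cre at the bottom. The 6 group means spanned 0.10, and 2.43% of the tested probes had a smaller SD over the arrays. Over the 6 groups Rela was not called different (limma F-test adjusted p = 0.96). Its genotype difference averaged -0.04 with a 95% interval of -0.17 to 0.09.

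Relb encodes the partner of p52 in the non-canonical pathway. Its level was 9.29 and 9.60 in TAU/LysM, 8.92 and 9.20 in TAU, 9.17, 8.63 and 9.16 in old LysM-Cre, 8.82, 8.77 and 8.73 in old SIRT1F/F, 9.43, 9.51 and 9.61 in the young LysM-Cre arrays, and 9.45, 8.65 and 9.35 in young SIRT1F/F. The 3 young LysM-Cre arrays lay above every old array, while 1 young SIRT1F/F array lay below all old SIRT1F/F arrays. Nfkb2, whose product p100 is processed to p52, ranged over the arrays between 8.21 and 9.14. Its mean was highest in TAU/LysM, at 8.93 ± 0.30 (SD, n = 2), and lowest in old SIRT1F/F, at 8.34 ± 0.14 (SD, n = 3). Over the 6 groups neither passed the test (limma F-test adjusted p = 0.0911 for Relb and 0.07 for Nfkb2). Across the 16 arrays, which share their group means, Relb and Nfkb2 correlated at r = 0.853.

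Rel, which encodes c-Rel, was 9.27 and 9.62 in TAU/LysM, 9.07 and 9.39 in TAU, 9.27, 9.40 and 9.64 in old LysM-Cre, 9.18, 9.21 and 9.81 in old SIRT1F/F, 9.62, 10.15 and 9.75 in the young LysM-Cre arrays, and 9.68, 9.74 and 9.997 in young SIRT1F/F. Both young groups had the highest means, but the groups overlapped: the third old SIRT1F/F array (9.81), the third old LysM-Cre array (9.6394) and the second TAU/LysM array (9.6198) lay above the lowest young array (9.6194). The F-test over the groups was not passed (limma adjusted p = 0.156). The difference between TAU and young SIRT1F/F was -0.58 ± 0.21 (SE, limma adjusted p = 0.0941), with the 2 TAU arrays below all 3 young arrays.

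Nfkbia encodes IkB-alpha, the inhibitor that NF-kB itself induces most directly. Its level was 14.23 and 14.26 in TAU/LysM, 14.42 and 14.50 in TAU, 14.47, 14.49 and 14.43 in old LysM-Cre, 14.60, 14.73 and 14.71 in old SIRT1F/F, 13.75, 14.10 and 13.68 in the young LysM-Cre arrays, and 13.28, 14.05 and 14.18 in young SIRT1F/F. Every old and every TAU array lay above every young array. The 3 old SIRT1F/F arrays lay above all other arrays, and the 2 TAU/LysM arrays lay between the young groups and TAU. Over the groups the level differed (limma F-test adjusted p = 0.0211).

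Nfkbia was called higher in old than in young SIRT1F/F, averaging 14.68 ± 0.07 in old and 13.84 ± 0.48 in young mice (SD, n = 3 each), a difference of 0.84 ± 0.18 (SE) or 1.79-fold (limma adjusted p = 0.0404). In these samples fewer cells of a type and less RNA per cell cannot be told apart. The call was lost without old SIRT1F/F array 1 (limma adjusted p = 0.113), array 2 (0.158) or array 3 (0.0877), with differences of 0.88, 0.82 and 0.83. Median scaling in place of quantile normalization (0.74, limma adjusted p = 0.0787), testing all probes (0.0763) or fitting the compared arrays alone (0.181) also ended it. Leaving out the lowest young array, which read 13.28, gave a difference of 0.57. In LysM-Cre the old minus young difference was 0.62 ± 0.18 (SE, limma adjusted p = 0.109), with no overlap between the groups. The difference between the 2 age effects was -0.22, with a 95% interval of -0.78 to 0.33, and was not called.

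Nfkbie encodes IkB-epsilon and has 2 probes. The brighter ranged between 10.57 and 11.51, with the highest mean in TAU/LysM, at 11.45 ± 0.06 (SD, n = 2), and the lowest in young SIRT1F/F, at 10.99 ± 0.39 (SD, n = 3), and its neighbouring groups overlapped throughout. The dimmer probe ranged between 7.55 and 8.18. Neither probe was called different over the groups (limma F-test adjusted p = 0.347 and 0.985).

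Nfkbiz encodes IkB-zeta, a nuclear IkB protein needed for a late set of target genes such as Il6. Its level was 13.82 and 14.18 in TAU/LysM, 14.004 and 14.17 in TAU, 14.05, 13.52 and 13.99 in old LysM-Cre, 13.90, 13.83 and 14.13 in old SIRT1F/F, 13.17, 13.49 and 13.35 in the young LysM-Cre arrays, and 13.53, 13.16 and 13.63 in young SIRT1F/F. The old SIRT1F/F arrays and the 4 TAU and TAU/LysM arrays lay above all 6 young arrays, and the second old LysM-Cre array, at 13.52, lay among the young arrays. Over the groups it differed (limma F-test adjusted p = 0.0304).

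Nfkbiz was called higher in TAU than in young SIRT1F/F, by 0.64 ± 0.19 (SE), or 1.56-fold (limma adjusted p = 0.04). It was also called higher in TAU/LysM than in young LysM-Cre, by 0.66 ± 0.19 (SE), or 1.58-fold (limma adjusted p = 0.0475). The TAU call was lost without young SIRT1F/F array 2 (limma adjusted p = 0.0971) or 3 (0.0519) or TAU array 1 (0.156) or 2 (0.203), with differences of 0.50 to 0.74. The TAU/LysM call was lost whichever of its 5 arrays was left out (limma adjusted p from 0.0548 to 0.299, differences from 0.48 to 0.85). Median scaling, no filter on dim probes and a fit of the compared arrays alone also ended both calls (adjusted p = 0.135, 0.0739 and 0.104 for TAU, and 0.0845, 0.0908 and 0.108 for TAU/LysM). Old minus young was 0.51 ± 0.17 in each genotype (SE, limma adjusted p = 0.141 in LysM-Cre and 0.162 in SIRT1F/F).

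Tnfaip2 is a TNF-induced gene whose product shapes thin membrane tubes between cells in cultured macrophages. By its brightest of 3 probes it was 11.14 and 11.33 in TAU/LysM, 10.69 and 10.89 in TAU, 10.97, 10.45 and 10.94 in old LysM-Cre, 10.49, 10.65 and 10.85 in old SIRT1F/F, 9.88, 10.52 and 10.19 in the young LysM-Cre arrays, and 9.91, 9.65 and 9.86 in young SIRT1F/F. The 2 TAU/LysM arrays were the highest of all, the 3 young SIRT1F/F arrays lay below every TAU and old array, and 1 young LysM-Cre array lay among the old ones. Its group means spanned 1.42, the widest of the 9 members' brightest probes. Over the groups it differed by all 3 probes (limma F-test adjusted p = 0.0028, 0.0101 and 0.0392).

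Tnfaip2 rose in old SIRT1F/F against young SIRT1F/F by 0.86 ± 0.17 (SE), or 1.81-fold (limma adjusted p = 0.0306). The other probes gave 0.78 and 0.73 (limma adjusted p = 0.0617 and 0.147). The call was lost without young SIRT1F/F array 2 (limma adjusted p = 0.0761) or 3 (0.104), or old SIRT1F/F array 1 (0.065), 2 (0.118) or 3 (0.0852), with differences of 0.76 to 0.95. It also ended with median scaling (0.72, limma adjusted p = 0.0729), with all probes tested (0.0581) and with the compared arrays alone (0.0707).

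Tnfaip2 also rose in TAU against young SIRT1F/F, by 0.98 ± 0.19 (SE), or 1.98-fold (limma adjusted p = 0.0067), and in TAU/LysM against young LysM-Cre, by 1.03 ± 0.19 (SE), or 2.05-fold (limma adjusted p = 0.00767). The other probes gave 0.77 and 0.77 for TAU (limma adjusted p = 0.0323 and 0.0684) and 0.87 and 0.64 for TAU/LysM (0.0263 and 0.153). Without TAU array 2 the TAU call was lost (0.88, limma adjusted p = 0.0653), as was the TAU/LysM call without TAU/LysM array 2 (0.94, limma adjusted p = 0.0802) or in a fit of the compared arrays alone (0.0732). In LysM-Cre old minus young was 0.59 ± 0.17 (SE, limma adjusted p = 0.109), and 0.26 and 0.28 by the other probes.

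Tnfaip3 encodes A20, which removes ubiquitin chains from signalling proteins upstream of IKK. Its level was 12.75 and 13.34 in TAU/LysM, 12.98 and 13.36 in TAU, 13.18, 12.98 and 13.30 in old LysM-Cre, 13.28, 13.05 and 13.63 in old SIRT1F/F, 12.59, 12.87 and 12.81 in the young LysM-Cre arrays, and 12.81, 12.53 and 13.09 in young SIRT1F/F. Neighbouring groups in the order of the means overlapped throughout, with old SIRT1F/F at the top. The F-test over the groups was not passed (limma adjusted p = 0.203). Nfkbiz correlated with Tnfaip3 at r = 0.861 and with Tnfaip2 at r = 0.847 over the 16 arrays, as a description.

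**Figure D1:**
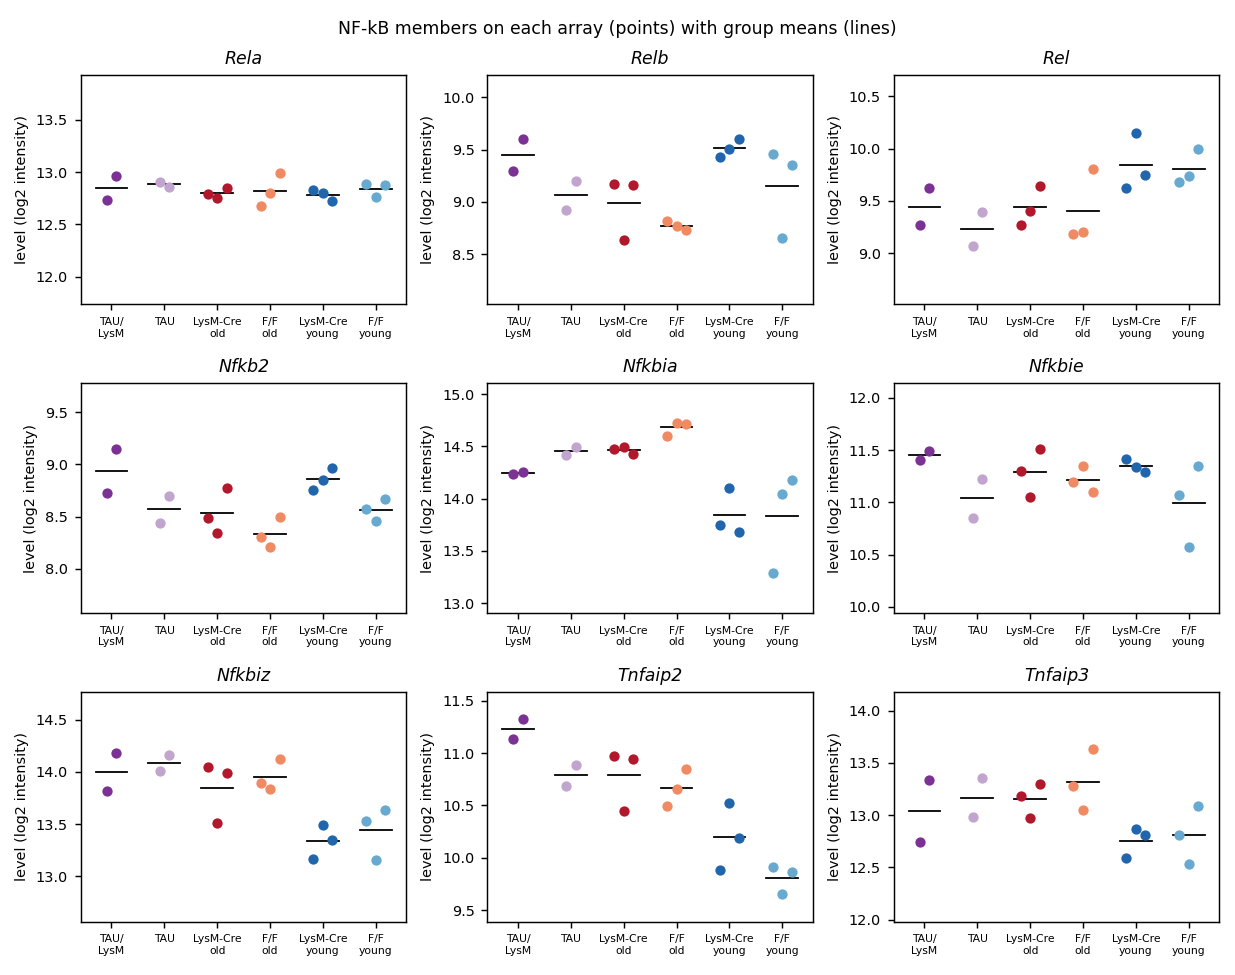
Level of each of the 9 members (log2 intensity, y axis) on every array, with points for arrays, lines for group means, and the groups along the x axis in the order TAU/LysM, TAU, old LysM-Cre, old SIRT1F/F (F/F in the plot), young LysM-Cre, young SIRT1F/F. Each panel has its own level range of the same width; the Nfkbia arrays of the old and TAU groups sit above all young arrays, while the Rela group means span 0.10.

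Among the 9 members the test over the 6 groups called 3 (Nfkbia, Nfkbiz and Tnfaip2), against 16.1% of all tested probes. With age, 2 of the 9 were called in SIRT1F/F, both higher, against 1.27% of probes, and 0 in LysM-Cre, against 1.69%. An unadjusted limma p under 0.05 was found for 4 members in SIRT1F/F, against 14.7% of probes, and for 5 in LysM-Cre, against 17.3%. The groups did not overlap for 3 members in SIRT1F/F, against 17.6% of probes, and for 4 in LysM-Cre, against 21.1%. The sign of the age difference was the same in both genotypes for 7 of the 9 members (77.8%), against 73% of all tested probes. Grouped by the sign seen, Nfkbia, Nfkbiz, Tnfaip3 and Tnfaip2 had positive age differences in both genotypes, from 0.40 to 0.86. Of these only Nfkbia and Tnfaip2 in SIRT1F/F were called. Relb, Rel and Nfkb2 had negative ones, from -0.53 to -0.23, of which none was called. Nfkbie had -0.06 in LysM-Cre and 0.22 in SIRT1F/F, and Rela 0.01 and -0.02.

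Old LysM-Cre against young LysM-Cre gave -0.53 ± 0.19 for Relb (SE, limma adjusted p = 0.191), with no overlap between the groups, and -0.32 ± 0.14 for Nfkb2 (SE, limma adjusted p = 0.259). In SIRT1F/F the same differences were -0.38 and -0.23, with overlap. For Rel they were -0.40 in LysM-Cre and -0.41 in SIRT1F/F, each with overlapping groups. The test of the difference between the genotypes' age effects called 0 of 9 members and 0% of probes (limma). At an unadjusted limma p under 0.05 it held 0 of 9 members, against 2.45% of all probes (400 probes).

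**Figure D2:**
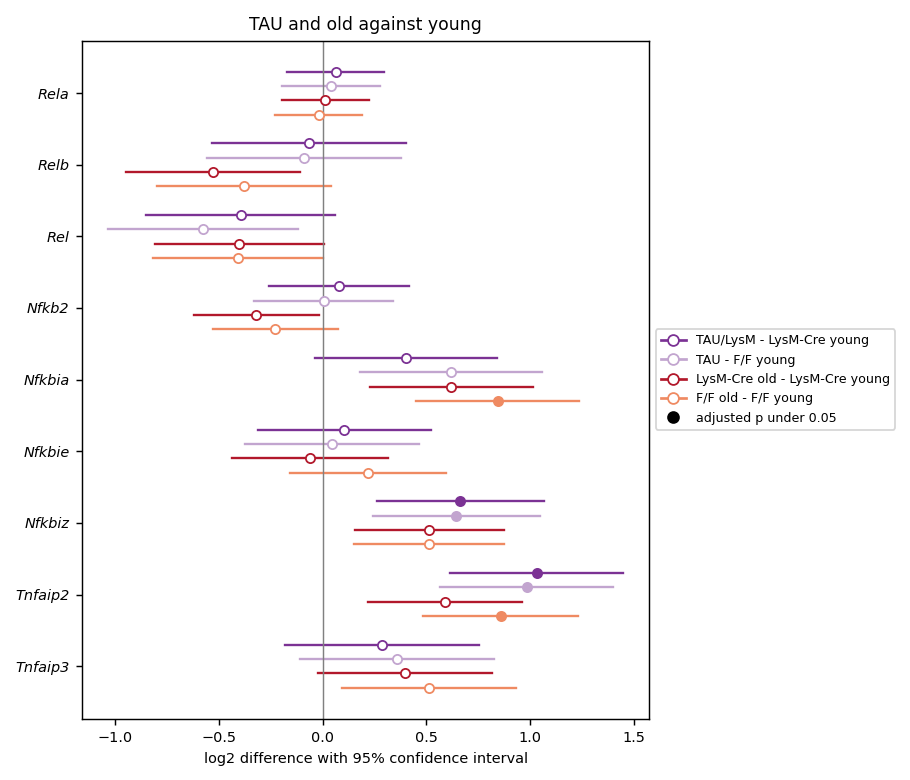
Log2 difference of each member (rows) with its 95% confidence interval, for TAU/LysM minus young LysM-Cre, TAU minus young SIRT1F/F, old minus young LysM-Cre and old minus young SIRT1F/F (F/F in the plot). Filled points have a limma adjusted p under 0.05: Nfkbia in old SIRT1F/F, Nfkbiz in both TAU comparisons, and Tnfaip2 in 3 of the 4 comparisons.

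TAU has no age label, so it was set against both ages of SIRT1F/F, as was TAU/LysM against those of LysM-Cre. Against young SIRT1F/F, TAU was called for 2 of 9 members, against 11.9% of probes, and its arrays did not overlap with the young ones for 4 members, against 43.7%. Against young LysM-Cre, TAU/LysM was called for 2 members, against 7.27%, with 3 not overlapping, against 40.3%. Against the old groups 0 members were called, against 3.97% of probes for TAU and 2.25% for TAU/LysM; at an unadjusted limma p under 0.05 these held 0 and 2 members, against 17% and 15.6% of probes. Nfkbia was 0.62 ± 0.20 in TAU minus young SIRT1F/F (SE, limma adjusted p = 0.0645), with no overlap. Against old SIRT1F/F it was -0.22 ± 0.20 (SE), with the 2 TAU arrays below all 3 old arrays. The share of all probes without overlap was not counted for that comparison.

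Marker lists of other cell types moved in both directions in TAU. Of the 8 tested oligodendrocyte markers 7 were called higher in TAU than in young SIRT1F/F, with array means of 10.5 to 10.9 in TAU and 8.28 to 8.83 in young SIRT1F/F, and so were 6 of 7 choroid plexus and ependyma markers, with 11.5 to 11.9 against 9.41 to 10.1. In TAU/LysM these means were 8.34 to 8.39 and 9.504 to 10.2, against 8.26 to 8.69 and 9.35 to 10.3 in the young LysM-Cre arrays, and 0 markers of either list were called. The oligodendrocyte marker Olig2 was above background on no array. Microglia markers were called lower for 6 of 10 in TAU/LysM against young LysM-Cre and 3 of 10 in TAU against young SIRT1F/F, with array means of 13.7 to 13.8 against 14.2, and of 13.97 to 13.98 against 14.2 to 14.3. Called higher in TAU than in young SIRT1F/F were also 4 of 7 astrocyte markers (1 was called lower), 3 of 5 endothelial, 3 of 6 mural and 2 of 4 neuronal markers. Of the markers called higher, Gfap was above background on 2 arrays, both TAU. Slc1a2, Mobp and Opalin were above it on 3 arrays each, 2 of them TAU. These markers passed the filter of 2 arrays only through the TAU arrays. Called lower there were 2 of 5 B cell markers and 2 of 5 T and NK cell markers. Of the latter, Cd4 was above background on the 6 young arrays alone, through which it passed the filter. Neutrophil, monocyte and erythrocyte markers had median differences of -0.46, -0.67 and -0.46, with 0 above 0 and 0 called in each list, and border-associated macrophage markers -0.19 with 0 called. In TAU/LysM against young LysM-Cre, 2 of 6 mural markers (median 0.72), 1 of 8 border-associated macrophage markers (median 0.41) and 1 of 7 astrocyte markers were called higher, and 3 of 5 B cell and 1 of 5 T and NK cell markers lower. Of those called lower, the B cell marker Vpreb3 was above background on 4 arrays, 3 of them young LysM-Cre. Cd4 was the T and NK cell marker called lower. Both passed the filter only through young arrays. The neutrophil, monocyte, erythrocyte, endothelial and neuronal lists had 0 calls in that comparison, with medians of -0.39, -0.33, 1.14, 0.33 and 0.26. The part of these cells in the TAU and TAU/LysM differences was not tested.

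The genotype comparisons set TAU/LysM against TAU, and LysM-Cre against SIRT1F/F within old and within young mice. Sirt1 was not called in any of them, with differences of 0.05, 0.07 and 0.03 (limma adjusted p = 0.928, 0.945 and 0.953). No member was called either. The calls numbered 0 of 9 against 1.48% of probes in the TAU pair, 0 against 0.0183% in old mice and 0 against 0% in young mice. At an unadjusted limma p under 0.05 these held 0, 0 and 1 of the 9 members, against 13.2%, 6.59% and 7.93% of all probes (2155, 1077 and 1296 probes). Averaged over the 3 settings, 0 members and 1.22% of probes were called, while 4 members (Relb, Nfkb2, Nfkbie and Tnfaip2) had an unadjusted p under 0.05, as did 19.9% of all probes.

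Nfkb2 differed by 0.36 ± 0.17 in the TAU pair, 0.20 ± 0.14 in old and 0.29 ± 0.14 in young mice (SE). The groups did not overlap in the TAU pair and in young mice, but the share of all probes without overlap was not counted there. The Nfkb2 average was 0.28 ± 0.09 (SE), with a 95% interval of 0.10 to 0.47 and a limma adjusted p of 0.11. Relb averaged 0.32 ± 0.12 (SE, limma adjusted p = 0.178), at 0.39 in the TAU pair, 0.21 in old and 0.36 in young mice. Tnfaip2 averaged 0.32 ± 0.11 (SE, limma adjusted p = 0.139) and Nfkbie 0.28 ± 0.11 (SE, limma adjusted p = 0.185). The dimmer Nfkbie probe averaged -0.03, so the 2 probes of that gene did not give the same sign.

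For Nfkbia the average was -0.14, with an interval of -0.38 to 0.10. Both TAU/LysM arrays lay below both TAU arrays and the 3 old LysM-Cre arrays below the 3 old SIRT1F/F arrays. How many of all probes did not overlap in these pairs was not counted, so this order is a description only. Nfkbiz averaged -0.10 (interval -0.32 to 0.13) and Tnfaip3 -0.11 (interval -0.38 to 0.15). Markers of neutrophils, in which LysM-Cre is also active, were above 0 for 12 of 12 tested genes in the average, with a median of 0.65, and 0 were called; their array means were 11.8 to 11.9 in TAU/LysM against 10.9 to 11.5 in TAU, 12.5 to 12.7 in old LysM-Cre against 11.8 to 12.4 in old SIRT1F/F, and 11.9 to 12.8 in young LysM-Cre against 11.2 to 12.1 in young SIRT1F/F. Monocyte markers were called higher for 2 of 4 in the average and B cell markers for 4 of 5, while 6 of 8 oligodendrocyte markers were called lower. Among the B cell calls, Vpreb3 was above background on 4 arrays, 3 of them young LysM-Cre. Among the oligodendrocyte calls, Mobp and Opalin were above background on 3 arrays each, 2 of them TAU. These 3 probes passed the filter of 2 arrays only through those groups. The oligodendrocyte median was -2.82 with 6 called lower in the TAU pair, and -0.27 in old and -0.03 in young mice with 0 called in each. Choroid plexus and ependyma markers were called lower for 6 of 7 in the TAU pair (median -2.10). Their medians were 0.18 in old and 0.25 in young mice, with 0 called. In the TAU pair 2 of 7 astrocyte and 1 of 4 neuronal markers were called lower. In the average, border-associated macrophage markers were above 0 for 8 of 8 (median 0.25) and microglia markers for 0 of 10 (median -0.11), with 0 called. B cell array means were 7.24 to 7.30 in TAU/LysM against 6.81 to 6.93 in TAU, 7.41 to 7.55 in old LysM-Cre against 7.02 to 7.40 in old SIRT1F/F, and 7.69 to 8.16 in young LysM-Cre against 7.10 to 7.45 in young SIRT1F/F. Monocyte means were 10.4 to 10.5 against 9.10 to 9.70, 11.2 to 11.4 against 10.3 to 10.8, and 10.5 to 11.2 against 9.54 to 10.6 in the same 3 pairs, with Ccr2 and Vcan above background on no array. The part of these cells in the member differences was not tested. Whether the genotype difference in the TAU pair differed from that in young or in old mice was tested as well: 0 members were called in each, against 0.306% and 0.202% of probes.

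**Figure D3:**
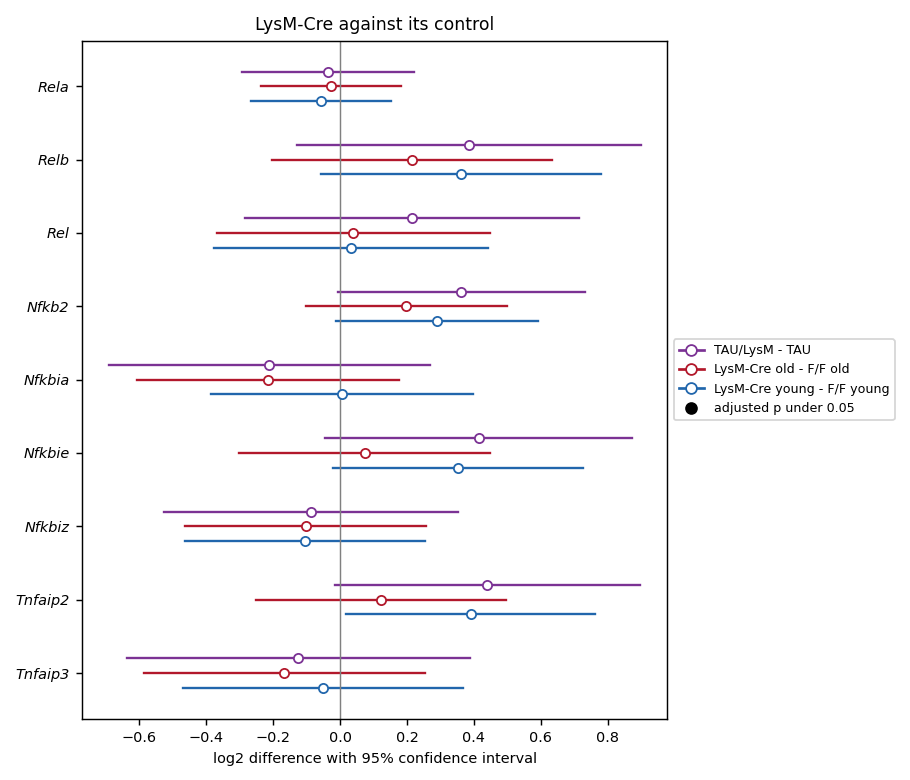
Log2 difference of each member (rows) with its 95% confidence interval for TAU/LysM minus TAU, old LysM-Cre minus old SIRT1F/F (F/F in the plot) and young LysM-Cre minus young SIRT1F/F. No point is filled, since no member had a limma adjusted p under 0.05. The Rela intervals are the narrowest, and those of Relb, Nfkb2, Nfkbie and Tnfaip2 lie mostly above 0.

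The genes most like a member across the 16 arrays, among 10981 tested genes, were taken for Nfkbia, Rela and Tnfaip3. Nfkbia was followed by Tnf (r = 0.93), Il1a (r = 0.922) and Tubb2b (r = 0.911). After each group's mean was taken away the same correlations were 0.819, 0.752 and 0.654. Tnf encodes the cytokine that activates NF-kB through its receptor, and Il1a encodes interleukin-1 alpha. Rela was followed by Cfap20 (r = 0.855), Rp9 (0.831) and Dld (0.807), and Tnfaip3 by Gpr84 (0.852), Icam1 (0.849) and Tgif1 (0.811). The arrays share their groups and processing, so these values describe the arrays only.

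**Figure D4:**
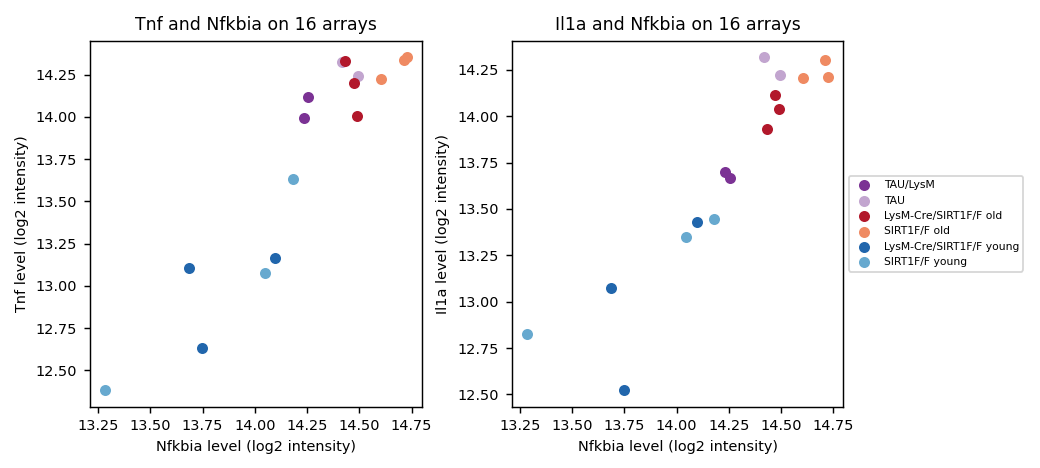
Tnf (left) and Il1a (right) level against Nfkbia level, all log2 intensity, with 1 point per array coloured by group. In both panels the young arrays lie at the lower left and the old and TAU arrays at the upper right, with TAU/LysM between them for Il1a.

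Of the wider pathway, 28 of 32 listed NF-kB target genes were tested. Among them 3 were called higher with age in LysM-Cre and 3 in SIRT1F/F (Tnf, Il1a and Bcl2a1d in each), with list medians of 0.20 and 0.26 against -0.03 over all probes in each. The calls over all probes were 1.69% in LysM-Cre and 1.27% in SIRT1F/F. Tnf was 14.20, 14.004 and 14.33 in old LysM-Cre, against 12.63, 13.17 and 13.10 in the young LysM-Cre arrays, and 14.22, 14.35 and 14.34 in old SIRT1F/F, against 12.38, 13.08 and 13.63 in young SIRT1F/F. Old and young arrays did not overlap. The differences were 1.21 ± 0.23 and 1.27 ± 0.23 (SE, limma adjusted p = 0.0222 in LysM-Cre and 0.0196 in SIRT1F/F). Bcl2a1d, a relative of the survival gene Bcl2 with near-identical copies in the mouse genome, differed by 0.87 ± 0.16 in LysM-Cre and 0.94 ± 0.16 in SIRT1F/F (SE, limma adjusted p = 0.0172 and 0.0154). Il1a differed by 1.02 ± 0.19 and 1.03 ± 0.19 (SE, limma adjusted p = 0.0206 and 0.0205). In SIRT1F/F the Tnf and Il1a calls were each lost without old array 1, 2 or 3, and the Bcl2a1d call without old array 1 or 2, with adjusted p up to 0.0949. In LysM-Cre each of the 3 calls was lost without young array 3 and without old array 1, among others, with adjusted p up to 0.0877.

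In TAU against young SIRT1F/F 5 of the 28 tested target genes were called higher and 1 lower, against 11.9% of all probes called in either direction. The named higher ones were Tnf (1.25), Il1a (1.06), Bcl2a1d (1.101) and Sod2 (0.32), the fifth was Cxcl10 (0.68), named after its value was seen, and the lower one was Saa3, an acute phase gene, at -2.30 ± 0.59 (SE). In TAU/LysM against young LysM-Cre 2 were called higher, Tnf (1.09) and Bcl2a1d (1.09), against 7.27% of all probes called. Set against the old groups, 0 target genes were called in TAU (old SIRT1F/F) and 0 in TAU/LysM (old LysM-Cre). Over all probes these comparisons called 3.97% and 2.25%. In the average genotype comparison 2 were called higher, Clec4e, which encodes the receptor Mincle, at 0.69 ± 0.14 (SE, limma adjusted p = 0.0401), and the chemokine gene Cxcl2, named after its value was seen, at 0.45 ± 0.10 (SE, limma adjusted p = 0.049). That comparison called 1.22% of all probes. Immediate early genes, which respond within minutes to stimuli that include tissue handling, had array means from 12.1 to 12.7 over all groups. Of 14 tested, 0 were called in either age comparison, with a median of -0.02 in each. The part of tissue handling in the levels and differences given here was not tested.

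Among the 4 tested other IkB genes, Nfkbib, which encodes IkB-beta, was called higher with age in SIRT1F/F, where 1.27% of all probes were called. It was 10.38, 10.30 and 10.19 in old SIRT1F/F, against 9.14, 9.16 and 8.93 in young SIRT1F/F, with no overlap, a difference of 1.21 ± 0.21 (SE, limma adjusted p = 0.0169). The call was lost without young SIRT1F/F array 3, or old SIRT1F/F array 1 or 2 (highest adjusted p = 0.0816). In LysM-Cre Nfkbib was not called, at 9.95, 9.90 and 9.997 in old against 9.57, 10.03 and 9.25 in young arrays, with overlap. Its age effect was not called different between the genotypes. Of 10 tested IKK and upstream kinase genes 0 were called with age, and 1 was called lower in each TAU comparison with young mice. Ikbkg, the regulatory subunit of IKK, was lower in TAU/LysM against young LysM-Cre (-0.42), where 7.27% of all probes were called. Map3k14, the kinase of the non-canonical pathway, was lower in TAU against young SIRT1F/F (-0.56), where 11.9% of all probes were called.

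Of 10 tested receptor adaptor genes Traf5 alone was called, lower in TAU than in young SIRT1F/F (-0.45). Of 14 ubiquitin enzymes and binders 3 were called: Usp18 higher in TAU/LysM than in young LysM-Cre (1.16), Rnf31 lower in TAU than in young SIRT1F/F (-0.64) and Tnip2, whose product binds A20, called higher in the TAU/LysM arrays against TAU (0.77). Of 12 tested modifiers of RelA, Ep300, an acetyltransferase of RelA, was called lower in TAU/LysM than in young LysM-Cre (-0.59) and in TAU than in young SIRT1F/F (-0.59), and Sirt1 lower in TAU than in young SIRT1F/F (-0.46 ± 0.14, SE, limma adjusted p = 0.0446). Over all probes, 7.27% were called in TAU/LysM against young LysM-Cre, 11.9% in TAU against young SIRT1F/F and 1.48% in TAU/LysM against TAU. In TAU against old SIRT1F/F and TAU/LysM against old LysM-Cre, 0 genes of any pathway list were called. Of the 24 calls that the naming rule picked for the pathway lists, 1 held whichever array was left out, that of Bcl2a1d in TAU against young SIRT1F/F. The Cxcl10 and Cxcl2 calls, named after their values were seen, are not among these 24.

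**Figure D5:**
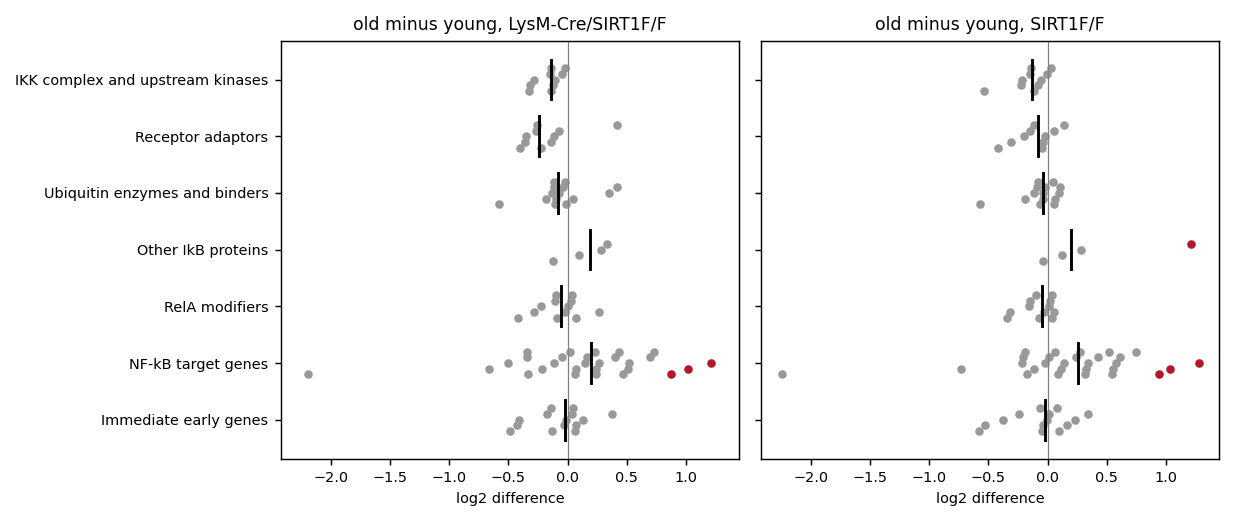
Log2 difference old minus young for each tested gene (points) of 7 pathway lists (rows), in LysM-Cre (left) and SIRT1F/F (right), with the list median as a bar and called genes in red. Red points are Tnf, Il1a and Bcl2a1d in both panels and Nfkbib in the SIRT1F/F panel. No gene's age difference was called different between the genotypes.

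Single markers of other cell types were called with age. Cldn11, listed for oligodendrocytes, was called higher in LysM-Cre (1.46) and SIRT1F/F (1.43), as was the neuronal marker Stmn2 (1.11 and 1.16). Only 2 of the 8 tested oligodendrocyte markers were above 0 in each genotype, with list medians of -0.30 and -0.07. Cd4, listed for T and NK cells, was called lower in both (-0.81 in each). In each genotype Cd4 was above background on 3 young and 0 old arrays, so its probe passed the filter only through the young groups. In LysM-Cre the B cell marker Ly6d was called lower (-0.55). In SIRT1F/F the border-associated macrophage marker Ms4a7 was called lower (-0.81) and the erythrocyte marker Hbb-b2 higher (1.53). The erythrocyte median was 0.16 in LysM-Cre and 1.51 in SIRT1F/F, and that of border-associated macrophages -0.30 and -0.46. In SIRT1F/F, endothelial markers had a median difference of 0.71 with 0 of 5 called, and neutrophil markers 0.47 with 11 of 12 above 0 and 0 called. In LysM-Cre the medians were 0.80 and 0.41, again with 0 called in either list. Monocyte markers were above 0 for 4 of 4 in both genotypes, with medians of 0.43 in LysM-Cre and 0.51 in SIRT1F/F. Choroid plexus and ependyma markers were above 0 for 7 of 7 in LysM-Cre (median 0.23) and 6 of 7 in SIRT1F/F (median 0.36). Of the monocyte and choroid plexus lists, 0 markers were called with age. The median of the 10 microglia markers was -0.10 in LysM-Cre, with 1 called lower, and -0.06 in SIRT1F/F, with 0 called. Neutrophil array means were 12.5 to 12.7 in old LysM-Cre against 11.9 to 12.8 in the young LysM-Cre arrays, and 11.8 to 12.4 in old SIRT1F/F against 11.2 to 12.1 in young SIRT1F/F. Whether these cells contribute to the higher Nfkbia and Tnfaip2 was not tested.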

How the data were processed

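For the 16 arrays the authors deposited probe intensity values, which were neither background subtracted nor normalized to judge by the values, and a table of log2 values that equals quantile-normalized log2 intensity to within 5e-09. Scanner and software: not given in the sources used here. Background was corrected by normexp in limma, with all probes in the fit (offset 16), because control probes and detection values were not used here, then log2 transformed and quantile normalized. Probes more than 1.645 spreads above each array's background mode (upper tail 0.05) on at least 2 arrays were tested, which left 16351 of 25697. On each array 54.8% to 57.5% of probes were above background.

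Comparisons were contrasts of 6 group means in limma 3.58.1 (R 4.3.3), with 10 residual degrees of freedom, a prior of 3.68 and Benjamini-Hochberg adjustment over all tested probes. A gene's lead probe was its tested probe with the highest mean. Figures used Python 3.11.15 and matplotlib 3.10.9. The fits were tested on simulated data.

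Symbols come from the platform table, which pairs 23978 probes with 1 symbol, 0 with several and 1719 with none. Within groups, arrays correlated at 0.984 to 0.994, and no columns were identical. Nothing in the labels makes the replicates separate animals, and p-values therefore reflect only how these samples vary, possibly for technical reasons, and the number of arrays limits the precision.

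The members, lists and rules for named genes were chosen with earlier results of these data known. All members were described. Of each pathway list, genes called in any comparison were named, up to 6 a list, by smallest adjusted p. For Rela, Nfkbia and Tnfaip3 the 3 most correlated genes were named. Alternatives to the background correction, scaling, filter, probe, weights, pairing and arrays used are reported in the closing section.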

Additional observations from a re-analysis of the deposited data

How the results depend on the processing

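Over the alternatives, 22 of 1044 member values moved (sign changes of values not called), 13 lost and 5 gained a call, and 0 called values changed sign. The Nfkbia and Tnfaip2 age calls in SIRT1F/F were lost with median scaling (members called 0), with no filter (0) and with only the compared arrays (0). Nfkbiz was lost in TAU against young SIRT1F/F with no filter and with only the compared arrays (1 member left in each) and with median scaling; against young LysM-Cre, TAU/LysM kept 1, 1 and 0 calls with median scaling, no filter and only the compared arrays. Array weights gave 1 call in the LysM-Cre age comparison (Nfkbia) and 5 over the groups, and median scaling 1 over the groups. Nfkbia in TAU against young SIRT1F/F was called with no background correction (limma adjusted p = 0.0475) and with array weights (0.033), and Rel there with median scaling (-0.74, 0.0337). Median scaling put the median of all probes at -0.16 in TAU against young SIRT1F/F and -0.11 with age in SIRT1F/F. Counting any probe changed no members' count, and the slide was not run because the files give none.

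Of all probes, the genotype average called 449 with no background correction and with the deposited table, 360 with offset 50, 77 with median scaling, 50 with no filter, 328 with the replicate block and 414 with array weights. The TAU-minus-young and TAU-minus-old genotype interactions called 108 and 87 with no background correction and with the deposited table, 82 and 73 with offset 50, 26 and 21 with 8 arrays above background, 154 and 133 with the replicate block, 116 and 95 with array weights, and 8 and 51 with only the compared arrays; with no filter the TAU-minus-old one called 21. Age called 451 probes in SIRT1F/F and 549 in LysM-Cre with the block, 364 and 483 with array weights, 104 and 127 with no filter, and 22 and 142 with only the compared arrays. TAU against young SIRT1F/F called 3231 with median scaling, 1205 with no filter and 397 with only the compared arrays, and against old 393 with no filter and 1510 with array weights. TAU/LysM against young LysM-Cre called 593 with no filter and 217 with only the compared arrays, and against old 198 and 138. TAU/LysM against TAU called 484 with array weights and 39 with only the compared arrays. The test over the groups called 1508 with no filter and 4066 with array weights.

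Leaving out 1 array gave 0 to 2 members called with age in SIRT1F/F, 0 to 2 in TAU against young, 0 to 1 in TAU/LysM against young and 2 to 4 over the groups. Probe counts ran from 17 to 401 with age in SIRT1F/F, 53 to 250 in LysM-Cre, 311 to 1939 and 129 to 419 for TAU against young and old, 249 to 901 and 63 to 256 for TAU/LysM against young and old, 25 to 215 for TAU/LysM against TAU, 27 to 499 for the average, 0 to 7 for the young genotypes, 10 to 111 and 5 to 43 for the interactions and 1116 to 2707 over the groups.

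Replicate numbers were checked as a pairing: 36 same-numbered pairs correlated at -0.175 to 0.508 (median 0.0529, 11 over 0.1), and 12 of 16 arrays correlated best with their own number, a hint from the data. Not every pair was over 0.1 and the labels give the number no meaning, so the numbers were not used as a pairing; whether same-numbered arrays share a batch was not tested. The replicate block changed no member's call, and among the other named genes it ended those of Tnip2 in TAU/LysM against TAU, Sirt1 and Sod2 in TAU against young SIRT1F/F, and Ep300 in TAU/LysM against young LysM-Cre.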
